A study of Mus musculus with 12 samples.

Results

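Clonotypes with long CDR3α are the TCRα sequences of newly developed thymic regulatory T cells (Treg) whose complementarity determining region CDR3α holds 16 or more amino acids, counted from the first cysteine to the closing phenylalanine or tryptophan. They were taken from all in-frame rows, those without a stop or a frame shift, and a clonotype was a combination of TRAV gene, CDR3α amino acid sequence and TRAJ segment. There were 705 long clonotypes among 20615 in-frame clonotypes (3.42%), and they held 2876 of 190549 in-frame unique molecular identifiers (UMIs, 1 per tagged Tcra mRNA molecule; 1.51%). Repertoires came from 12 individual mice of 3 weeks of age on a B6 background, 4 wt, 4 lacking IL-2 (Il2°) and 4 lacking IL-15 (Il15°). Mice of every genotype carried the Rag2-Gfp and Foxp3-Thy1a reporters, the Kaa TCRβ transgene and a single functional Tcra allele (Tcra+/null), so that 1 fixed TCRβ chain was paired with 1 variable α chain in each cell. From each thymus, 100000 CD4+CD8-Thy1.1+GFP+ cells were sorted. The comparisons addressed whether the cytokine available to developing Treg was reflected in the long α chains that they carried.

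The α chain gene is assembled in the thymus by joining a TRAV gene to a TRAJ segment. Exonucleases trim both ends and terminal transferase adds untemplated bases, so that CDR3α, the loop over the bound peptide, is encoded by the end of the TRAV gene, by inserted bases and by most of the TRAJ segment. Because there is no D segment, the length of CDR3α depends on the germline length of the TRAJ segment, on trimming and on insertion. Foxp3+ Treg are selected in the thymus on self-peptides, and IL-2 and IL-15 are cytokines that support this step.

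Sequences of the most abundant long clonotypes are shown first, to give the form of a long CDR3α and of the clonotypes described by name. Each is the commonest nucleotide sequence of its clonotype, written 5′ to 3′ from the cysteine codon to the phenylalanine codon, with capitals for the bases that the deposited annotation placed between the end of the V gene and the start of the J segment.
TRAV14-1 TRAJ2: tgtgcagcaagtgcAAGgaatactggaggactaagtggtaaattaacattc
TRAV12N-3 TRAJ2: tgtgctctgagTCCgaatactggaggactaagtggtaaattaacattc
TRAV6D-7 TRAJ58: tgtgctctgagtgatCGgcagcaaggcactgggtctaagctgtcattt
TRAV19 TRAJ57 (a): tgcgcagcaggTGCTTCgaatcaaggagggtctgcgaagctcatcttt
TRAV16N TRAJ18 (a): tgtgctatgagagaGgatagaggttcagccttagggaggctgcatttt
TRAV19 TRAJ57 (b): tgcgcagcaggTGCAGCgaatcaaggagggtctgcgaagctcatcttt
TRAV4D-3 TRAJ39: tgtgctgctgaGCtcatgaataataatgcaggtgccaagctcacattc
TRAV16N TRAJ18 (b): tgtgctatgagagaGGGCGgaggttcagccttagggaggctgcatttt
TRAV14D-3/DV8 TRAJ2: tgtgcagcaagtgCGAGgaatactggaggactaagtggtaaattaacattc
TRAV4D-3 TRAJ42: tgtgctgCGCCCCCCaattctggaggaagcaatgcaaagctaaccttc
TRAV21/DV12 TRAJ57: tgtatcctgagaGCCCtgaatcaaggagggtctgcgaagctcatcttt
In each of these 11 sequences the J part was longer than the V part and the inserted bases together. For TRAV4D-3 TRAJ39 the annotation gave 35 bases to the J part, while germline TRAJ39 has 32 up to the phenylalanine codon. The first lower-case bases after its capitals therefore lie outside the germline segment. The first 10 had the highest mean share of in-frame UMIs over the 12 libraries among all long clonotypes, and the last was found in all 4 wt libraries and in no Il2° library. Clonotypes that share a V and a J name are told apart as (a) and (b).

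Germline J segments of 33 bases or more up to the phenylalanine codon are shown beside the short TRAJ31, since J segments differed most between long and other clonotypes. They were read from the mouse genome (GRCm38, mm10) with the GENCODE M21 annotation, on the plus strand of chromosome 14, and are given in lower case throughout since no base is singled out.
TRAJ2: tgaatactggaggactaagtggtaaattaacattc
TRAJ53: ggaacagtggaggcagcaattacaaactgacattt
TRAJ32: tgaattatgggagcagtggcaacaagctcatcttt
TRAJ18: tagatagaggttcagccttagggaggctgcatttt
TRAJ52: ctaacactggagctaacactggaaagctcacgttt
TRAJ28: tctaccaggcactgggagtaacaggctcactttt
TRAJ42: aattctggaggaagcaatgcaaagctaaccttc
TRAJ31: ggaatagcaataacagaatcttcttt
TRAJ2 lies at chr14:54217836-54217901, close to the constant gene Trac at chr14:54220521-54224206, and supplies up to 35 bases to the CDR3α. TRAJ31, at chr14:54187895-54187951, supplies up to 26. The V gene of the most abundant long clonotype, Trav14-1, lies at chr14:53554022-53554558, and that of the next, Trav12n-3, at chr14:53240745-53241244.

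The deposited libraries held between 7625 and 25980 UMIs each, and between 88 and 398 of these (median 228) belonged to long clonotypes. Between 50 and 150 long clonotypes (median 98) were found per library. At this depth a clonotype without a UMI could still make up 0.0121% to 0.0411% of a library, the limit that a count of 0 allows (3 UMIs). Intervals and limits cover counting error only, and more cells of a clonotype cannot be told apart from more Tcra mRNA per cell.

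Several libraries shared identical long nucleotide sequences far more than others, and this bears on every comparison. Of 233 long nucleotide sequences (with their V and J names) found in exactly 2 libraries, 202 (86.7%) fell into 9 of the 66 possible pairs of libraries, with 5 to 40 per pair (median 22), whereas the other 57 pairs held 31, with 0 to 5 per pair (median 0). The 9 pairs were picked from the shorter sequences, as those with at least 300 of these found in exactly the libraries of the pair. They held 332 to 1191 (median 623), and the other pairs 0 to 116 (median 17). Linked in this way were wt 1 with wt 2, wt 2 with Il2° 1, wt 3 with wt 4, wt 4 with Il2° 4, Il2° 3 with Il2° 4, Il2° 2 with Il2° 3, Il15° 1 with Il15° 4, Il15° 3 with Il15° 4 and Il15° 2 with Il15° 3. The pairs join into 3 sets, of which the first holds wt 1, wt 2 and Il2° 1, the next wt 3, wt 4 and the other Il2° libraries, and the last the 4 Il15° libraries alone. Genotype Il15° and membership of the last set therefore cannot be told apart, and tests that treat the 12 libraries as independent rest on mice whose libraries share sequences. The cause of the sharing was not tested. Counting every nucleotide sequence only in the library with most UMIs of it left 2296 of the 2876 long UMIs (79.8%) and all 705 long clonotypes, and results are also given below in that form where a call, a sign or a size turned on it.

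**Figure D1:**
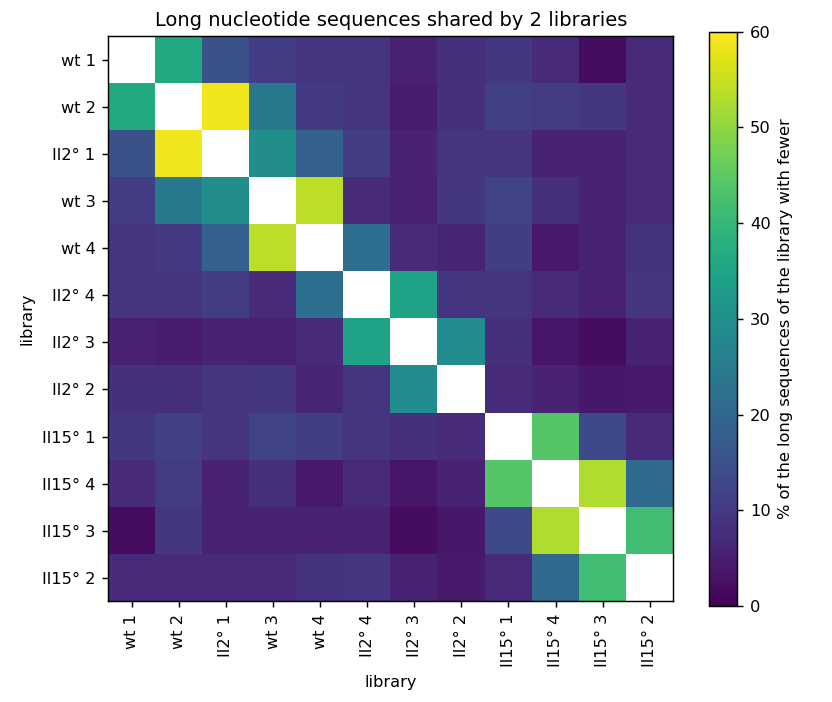
Long nucleotide sequences shared by each pair of the 12 libraries, as a percent of the long sequences of the library with fewer; the order of the libraries was chosen from the data. The 9 linked pairs lie between 21.8% and 58.6% (median 41.5%) and the other pairs between 1.89% and 29.7% (median 8.09%).

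Most long clonotypes were only just long. At 16 amino acids there were 581 clonotypes with 2296 UMIs (79.8% of long UMIs), at 17 there were 92 with 497 UMIs (17.3%), and at 18 to 20 there were 10 with 26 UMIs. No in-frame clonotype measured 21 to 36 amino acids, and 22 clonotypes with 57 UMIs measured 37 to 52. On either side of the limit, clonotypes of 15 amino acids made up 6.56 ± 0.73% of in-frame UMIs (SD, n = 12) and those of 16 made up 1.21 ± 0.16%, while lengths of 13 and 14 held 33.8% and 30.7%.

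The 22 clonotypes above 36 amino acids were not single rearrangements of the usual form. In 11 of them (16 rows, 45 UMIs, 9 libraries), of 37 to 39 amino acids, the sequence ran through the end of a first J segment after 13 to 15 residues and on into a second: 10 clonotypes (35 UMIs) were assigned to TRAJ17 and held the end of TRAJ18, and 1 (10 UMIs) held that of TRAJ22. The other 11 (12 rows, 12 UMIs, 8 libraries), of 48 to 52 amino acids, held residues that translate the reverse complement of the primer used to build the libraries, and in all 12 rows the recorded J start lay beyond the end of the deposited nucleotide sequence. The longest, TRAV5D-4 TRAJ7 with 52 amino acids, was 1 UMI in wt 3, and its sequence is not shown because the deposited bases are fewer than its residues would need. These rows made up 1.98% of long UMIs. Without them, 9 TRAV families, 30 TRAJ segments and 14 amino acids differed between long and other clonotypes in the tests given below, against 9, 30 and 16 with them.

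Over all in-frame rows, the share of the repertoire in long clonotypes passed no test between genotypes. In the 4 wt libraries the share of in-frame UMIs was 1.60, 1.56, 1.47 and 1.37%, in the Il2° libraries 1.72, 1.46, 1.25 and 1.21%, and in the Il15° libraries 1.48, 1.72, 1.60 and 1.54%. All 3 groups overlapped, with the lowest value in Il2° 4 and the highest in Il15° 2, closely followed by Il2° 1. The mean was 1.5 ± 0.10% for wt, 1.41 ± 0.23% for Il2° and 1.58 ± 0.10% for Il15° mice (SD over 4 mice). Il2° libraries differed from wt by -0.0920 percentage points (SE 0.128; p = 0.486) and Il15° libraries by 0.0837 (SE 0.0722; p = 0.486), by exact 2-sided Mann-Whitney tests, for which 4 against 4 mice cannot give a p below 0.0286. Between Il15° and Il2° it was 0.176 (SE 0.128; exact p = 0.2, adjusted p = 0.486 over 3 comparisons). In the first linked set wt libraries held 1.60 and 1.56% and the Il2° library 1.72%, and in the next set wt libraries held 1.47 and 1.37% and the Il2° libraries 1.46, 1.25 and 1.21%. Single libraries moved these differences: Il2° against wt ran from -0.195 without Il2° 1 to -0.0247 without Il2° 4, Il15° against wt from 0.0383 without Il15° 2 to 0.118 without wt 1, and Il15° against Il2° from 0.108 without Il2° 4 to 0.279 without Il2° 1. With each sequence counted only in its highest library the difference from wt was 0.131 for Il2° (exact p = 0.686) and 0.175 for Il15° (exact p = 0.114), and that between Il15° and Il2° was 0.0442 (exact p = 0.686), so the sign for Il2° is not fixed by these data. As a share of clonotypes rather than UMIs, long clonotypes made up 2.66 ± 0.22% in wt, 2.36 ± 0.49% in Il2° and 2.71 ± 0.13% in Il15° (exact p = 0.686 for each mutant against wt). The difference in this share between Il15° and wt was 0.0510 percentage points, 0.211 with each sequence only in its highest library (exact p = 0.2), and 0.225 when clonotypes with 1 UMI in a library were left out (exact p = 0.0286, the smallest possible).

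On average, long clonotypes held fewer UMIs than other clonotypes of the same library in all 12 mice. Long clonotypes held 2.59 ± 0.60 UMIs each (1.73 to 3.63, n = 12) and other in-frame clonotypes 4.49 ± 0.95 (2.52 to 5.83). The log2 ratio of these means was -0.79 ± 0.12 and ran from -0.96 to -0.55, a mean ratio of 0.577 (exact sign-flip permutation test over the 12 libraries, p = 0.000488, the smallest it can give). With each sequence only in its highest library the log2 ratio was -0.49 (exact p = 0.000488). It was -0.64 with nucleotide clonotypes and -0.66 after downsampling. At a limit of 15 residues it was -0.51 and at 17 it was -0.49 (exact sign-flip p = 0.0181 at 17). By genotype the log2 ratio over all in-frame rows averaged -0.84 for wt, -0.75 for Il2° and -0.79 for Il15° mice (exact Mann-Whitney p = 0.486 for Il2° and 0.343 for Il15°, each against wt). Clonotypes found as a single UMI made up 48 ± 10.1% of the long and 36.5 ± 10.2% of the other clonotypes of a library.

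**Figure D2:**
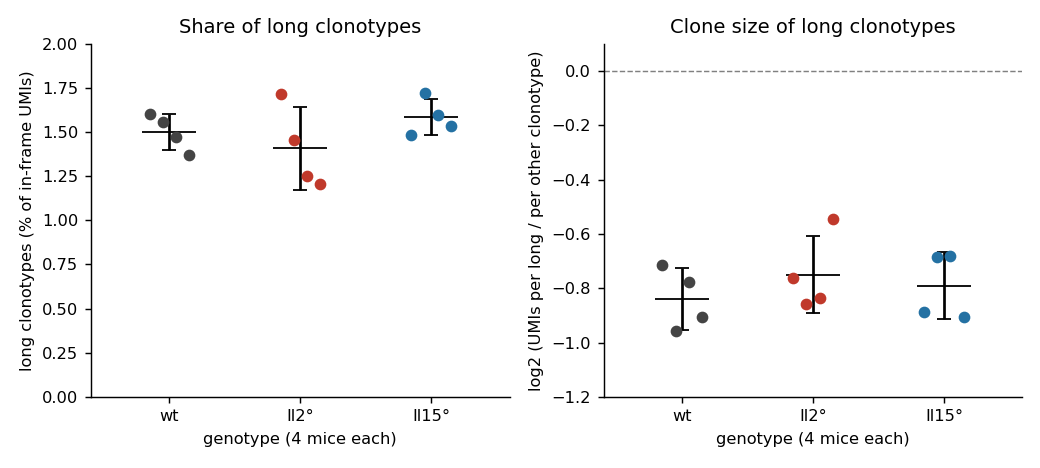
Share of in-frame UMIs in long clonotypes (left, percent) and log2 ratio of UMIs per clonotype, long over other (right), with 1 point per mouse and bars for mean ± SD (n = 4 per genotype). Shares overlap between the genotypes at 1.21 to 1.72%, and every ratio lies below 0, between -0.96 and -0.55.

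Long UMIs were nevertheless concentrated in a few clonotypes. The most abundant held 197 UMIs (6.85% of long UMIs), the leading 10 held 558 (19.4%), and 202 clonotypes were a single UMI in the whole series. Most long clonotypes had 1 nucleotide sequence: 64 of 705 (9.08%) had 2 or more, against 20.5% of other clonotypes, and the leading ones were among the exceptions.

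The most abundant long clonotype joined TRAV14-1 to TRAJ2 and measured 17 amino acids. It was present in every mouse, with 29, 35, 6 and 13 UMIs in wt 1 to 4, 5, 20, 19 and 13 in Il2° 1 to 4, and 26, 12, 2 and 17 in Il15° 1 to 4. The genotypes overlapped, with mean shares of 0.0966% for wt, 0.115% for Il2° and 0.0893% for Il15° mice (of in-frame UMIs). It was encoded by 10 nucleotide sequences, of which the one shown above held 65 UMIs (33%) and occurred in 9 libraries, and 67 of its UMIs remained when each sequence was kept in its highest library only. The same amino acid sequence with TRAJ2 also appeared under other V names (TRAV14D-3/DV8, TRAV14N-1 and TRAV5D-4), and over all of these it held 261 UMIs (9.08% of long UMIs) in 13 nucleotide sequences and 12 libraries. Its 5 commonest sequences are given to show how different bases encode 1 protein loop, with capitals for the bases that differ among them.
97 UMIs in 10 libraries: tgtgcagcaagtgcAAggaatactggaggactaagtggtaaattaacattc
61 UMIs in 8 libraries: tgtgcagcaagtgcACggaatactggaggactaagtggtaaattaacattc
51 UMIs in 10 libraries: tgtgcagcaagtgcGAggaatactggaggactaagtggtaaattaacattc
16 UMIs in 5 libraries: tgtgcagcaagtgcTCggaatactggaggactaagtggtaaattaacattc
10 UMIs in 5 libraries: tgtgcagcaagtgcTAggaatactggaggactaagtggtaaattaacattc
The 5 sequences differ only at the join, and share their V and J parts base for base.

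The clonotype TRAV12N-3 TRAJ2, of 16 amino acids, was the other long clonotype present in all 12 mice. Its UMIs numbered 13, 13, 6 and 15 over the wt, 11, 6, 4 and 3 over the Il2°, and 11, 6, 5 and 7 over the Il15° libraries (100 in all, mean share 0.0520%), encoded by 10 nucleotide sequences of which the commonest held 40 UMIs and occurred in 11 libraries. The TRAV6D-7 TRAJ58 clonotype followed with 47 UMIs, at 2, 7, 6 and 6 in wt, 0, 9, 4 and 1 in Il2° and 7, 5, 0 and 0 in Il15°. Its amino acid sequence with TRAJ58 also appeared under the V names TRAV6N-7, TRAV6-5 and TRAV12N-3. Over all V names that sequence held 72 UMIs in 11 libraries, with 10, 10, 7 and 9 in wt. It had 8, 9, 4 and 2 in Il2° and 7, 5, 1 and 0 in Il15°. Both TRAV19 TRAJ57 clonotypes, with 38 and 34 UMIs, were found in each genotype and were missing from several libraries. The TRAV4D-3 TRAJ39 clonotype held 32 UMIs, at 4, 3, 3 and 0 in wt, 2, 5, 0 and 1 in Il2° and 11, 0, 0 and 3 in Il15°.

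A few named clonotypes were unevenly spread over genotypes. TRAV14D-3/DV8 TRAJ2 had no UMI in any wt or Il2° library and 1, 9, 2 and 12 UMIs in Il15° 1 to 4. Of its 24 UMIs, 23 were 1 nucleotide sequence found in 3 libraries of the linked Il15° set, and this is the sequence with GA at the join shown above, which over both V names, TRAV14-1 and TRAV14D-3/DV8, was found in 3 wt libraries with 12 UMIs, 3 Il2° libraries with 14 and 4 Il15° libraries with 25. The Il15°-only pattern thus lies in the V name recorded beside an identical CDR3α sequence: over all V names the amino acid sequence made up 0.132% of the in-frame UMIs of wt, 0.117% of those of Il2° and 0.137% of those of Il15° mice, with overlapping ranges. TRAV16N TRAJ18 (b) had 1 UMI in wt 3, none in Il2° and 1, 4, 10 and 6 in Il15°, in 4 nucleotide sequences. TRAV4D-3 TRAJ42 had none in wt, 3 and 1 in Il2° 2 and 3, and 1, 12 and 2 in Il15° 1, 3 and 4. In the other direction, TRAV21/DV12 TRAJ57 had 4, 3, 9 and 1 UMIs in wt, none in Il2° and 1 in Il15° 4, in 2 nucleotide sequences of which 1 held 11 UMIs. TRAV16N TRAJ18 (a), with 4, 1, 6 and 6 UMIs in wt, 2 and 1 in Il2° 1 and 4, and 2, 3 and 7 in Il15° 1, 2 and 4, was found in each genotype. These clonotypes were named for such patterns or for their abundance, so their values are a description.

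**Figure D3:**
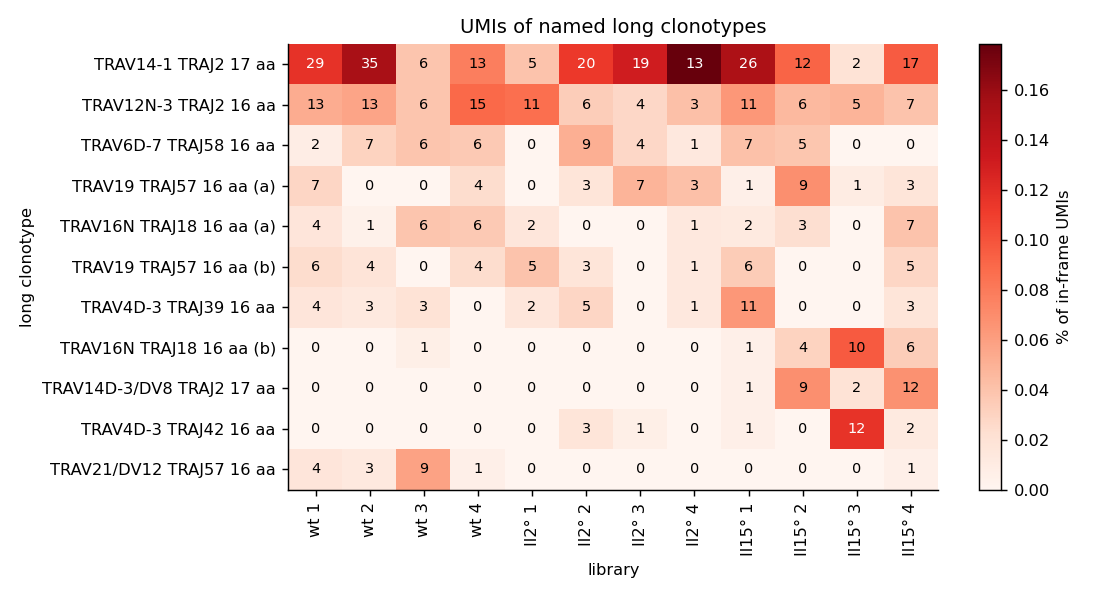
UMIs of the named long clonotypes in the 12 libraries, printed as the number in each cell and coloured by percent of in-frame UMIs. TRAV14-1 TRAJ2 and TRAV12N-3 TRAJ2 are filled in every column, TRAV14D-3/DV8 TRAJ2 in the Il15° columns and TRAV21/DV12 TRAJ57 in the 4 wt columns and Il15° 4.

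No long clonotype differed between genotypes in the fit over all clonotypes. Of clonotypes that reached 5 UMIs in 4 or more libraries, edgeR's quasi-likelihood test called 0 of 464 between Il2° and wt (0%; 43 had an unadjusted p below 0.05) and 0 of 478 between Il15° and wt (0%; 20 unadjusted). Long clonotypes made up 3 of the tested in each case, and none was below 0.05 unadjusted. TRAV14-1 TRAJ2 had a log2 fold change of 0.27 in Il2° and -0.22 in Il15°, TRAV12N-3 TRAJ2 of -0.30 and -0.34, and TRAV6D-7 TRAJ58 of -0.11 and -0.58, with Benjamini-Hochberg adjusted edgeR p values of 0.917 or more. DESeq2 called 8 and 5 clonotypes, none of them long.

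A different filter, which admitted clonotypes found in all 4 libraries of either genotype, let in more of the uneven ones. It called 50 of 800 (6.25%) between Il2° and wt, of which 1 of the 5 long clonotypes tested, TRAV21/DV12 TRAJ57 (17 UMIs in wt, 0 in Il2°; edgeR adjusted p = 0.0204). Between Il15° and wt it called 127 of 816 (15.6%), of which 3 of the 8 long clonotypes tested. These were TRAV14D-3/DV8 TRAJ2 (0 in wt, 24 in Il15°; edgeR adjusted p = 0.00748), whose CDR3α sequence was present in wt under another V name, TRAV16N TRAJ18 (b) (1 and 21; 0.0195) and TRAV21/DV12 TRAJ57 (17 and 1; 0.0428). This filter selects on detection in the same libraries that are then compared. For a clonotype that entered through 1 genotype only, detection differs between the genotypes by the rule of entry. These calls and their adjusted p values are therefore a description and no support for a difference. The Il15° libraries also form 1 linked set.

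J segment use set long clonotypes apart from the others most clearly, although the rule itself draws on it, since the J segment supplies most bases of a CDR3α and a longer segment makes a longer loop. Differences between long and other clonotypes were tested over the 12 libraries with an exact 2-sided sign-flip permutation test and Benjamini-Hochberg adjustment over the segments. Of 32 TRAJ segments, 30 differed (93.8%), 14 being more used and 16 less used by long clonotypes. TRAJ2 took 21.8 ± 6.9% of long UMIs (lowest 7.93, median 21.4, highest 34.7%; SD, n = 12) and 0.370% of other UMIs (0.138 to 0.483%), and these ranges did not overlap. Seen from the segment, 652 of the 1339 in-frame TRAJ2 UMIs (48.7%) were long, between 20.9 and 76.0% by library.

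The other J segments that took at least 5% of long UMIs were TRAJ18 (7.28% of long and 2.68% of other UMIs), TRAJ32 (6.53 and 1.79%), TRAJ39 (6.36 and 2.77%), TRAJ57 (5.90 and 0.569%) and TRAJ4 (5.71 and 2.29%), each called with an adjusted exact p of 0.00725 or less. The largest ratios beside TRAJ2 (58.8) were those of TRAJ58 (16.2) and TRAJ38 (11.8). At the other end, TRAJ31, used by 9.16% of other UMIs, took 0.0458% of long UMIs, TRAJ30 took 0.0324 against 2.05% and TRAJ21 took 0.187 against 4.68%. The long shares of TRAJ31 and TRAJ30 were 1 UMI each. That of TRAJ31 was a row of 48 amino acids with primer residues, and TRAJ31 had 0 long UMIs at up to 20 amino acids. TRAJ17 (4.99 and 4.54%) and TRAJ6 were the segments not called. Of the 131 long UMIs of TRAJ17, 86 were in clonotypes of up to 20 amino acids. The other 45 were in the clonotypes that ran through a first J segment into a second. With each sequence only in its highest library TRAJ2 took 15.7 against 0.482%, and TRAJ56 was no longer called (adjusted exact p = 0.0864).

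Germline length was set against long share without TRAJ7, TRAJ44 and TRAJ47, of whose 6311 UMIs 24 were in frame. The other 40 segments had an annotated germline sequence. Those with more bases up to the closing codon had a larger part of their UMIs in long clonotypes of up to 20 amino acids. The 7 segments of 33 to 35 bases had 8.92% of their UMIs in long clonotypes, the 13 of 31 or 32 bases 3.42%, the 12 of 28 to 30 bases 0.498% and the 8 of 26 or 27 bases 0.150%. The 7 longest segments supplied 47.5% of long UMIs and 7.88% of all in-frame UMIs, and the 8 shortest 3.80% and 37.3%. Across the 40 segments Spearman's rho between germline length and long share was 0.837 and Pearson's r 0.529, which describes segments of 1 locus in the same libraries and not independent points. The 7 longest segments supplied 48.9 ± 6.3% of the long UMIs of wt, 42.7 ± 2.5% of those of Il2° and 47.4 ± 1.5% of those of Il15° mice (SD, n = 4).

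**Figure D4:**
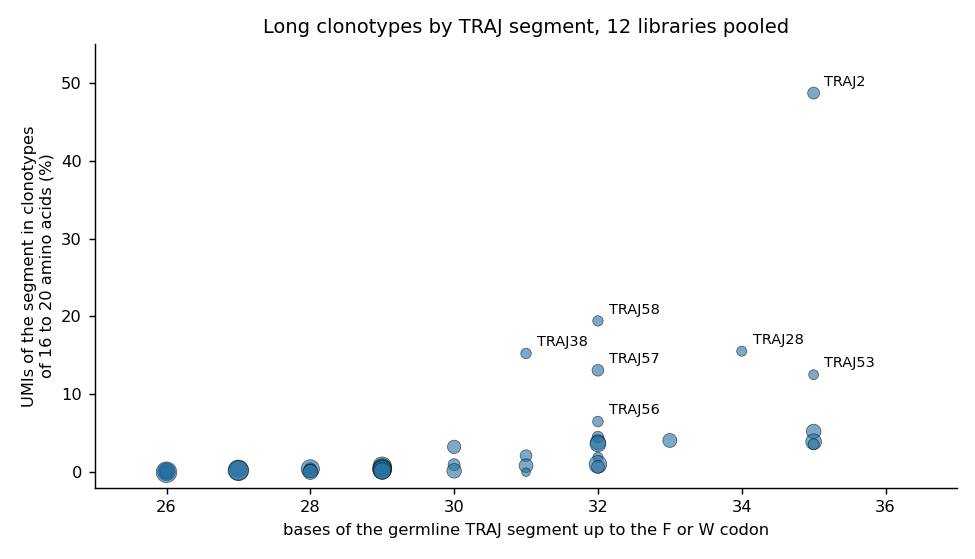
Percent of the in-frame UMIs of each TRAJ segment in clonotypes of 16 to 20 amino acids, against the germline bases from the start of the segment to the closing codon, for 40 segments with point size by UMIs. TRAJ7, TRAJ44 and TRAJ47 are left out. Segments of 26 or 27 bases together had 0.150% long UMIs and those of 33 to 35 bases 8.92%, with TRAJ2 at 48.7%.

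The longer loops were built from all parts of the join. On average over UMIs, long clonotypes had 12.2 bases from the V gene against 10.4 in others, 4.73 inserted bases against 2.30, and 31.6 bases from the J segment against 26.4. Of the 9.49 extra bases, 55.3% were thus J, 25.6% inserted and 19.1% V, and since these add up to the length that chose the clonotypes they are given without a test. By the deposited J part, some of the J difference was less trimming, with 1.02 germline J bases missing in long against 2.45 in other clonotypes. The rest came from segments that were longer in the germline (32.6 against 28.8 bases). The missing bases are counted too low where the deposited J part exceeds the germline length, as in TRAV4D-3 TRAJ39. Counted as bases matching the germline without a mismatch, the J part was 30.7 in long and 25.8 in other clonotypes (52.3% of the extra length). Joins without any inserted base made up 6.02 ± 2.58% of long and 22.1% of other UMIs. Inserted bases of long clonotypes averaged 4.43 for wt, 4.87 for Il2° and 4.90 for Il15° mice. The deposited J start matched the longest germline J end in 69.6% of the 1222 long rows of up to 20 amino acids that could be compared and lay within 1 base of it in 77.1%, which limits how exactly inserted bases can be separated from J bases.

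TRAV use differed as well, and it too is tied to the length rule. The end of the TRAV gene is part of the CDR3α whose length chose the clonotypes. Of 17 TRAV families, 9 differed between long and other clonotypes (52.9%), 6 more and 3 less used by long ones, each with an adjusted exact p of 0.00184. The families with at least 5% of long UMIs were TRAV4, TRAV14, TRAV12, TRAV6, TRAV7 and TRAV16. TRAV4, the most used family in other clonotypes at 32.1% (25.4 to 38.8%), took 15.9% of long UMIs (lowest 6.59, median 15.4, highest 23.8%), and no long value reached the lowest of the others. TRAV7 took 10.1 against 20.2% and TRAV10 0.894 against 4.08%. TRAV12 took 15.3 against 9.72%, TRAV16 7.98 against 3.55%, and TRAV6 11.6 against 9.71% (adjusted exact p = 0.369). The largest ratios were those of families that other clonotypes seldom used, namely TRAV21 (2.34 against 0.128%, ratio 18.3), TRAV15 (1.83 against 0.107%, 17.1) and TRAV19 (3.79 against 0.246%, 15.4).

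TRAV14 took 15.5 ± 5.5% of long and 6.71% of other UMIs, and ran from 5.48% in Il2° 1 to 23.9% in wt 1 with a median of 15.7%. Its call rests on sequences that several libraries hold: with each kept in its highest library only, it took 11.3 against 7.45% (adjusted exact p = 0.159). Families and segments came in particular combinations. TRAV14 with TRAJ2 held 288 UMIs in 15 clonotypes (10.0% of long UMIs), and TRAV12 with TRAJ2 180 UMIs in 21 clonotypes (6.26%), both in all 12 libraries. TRAV4 with TRAJ2 held 107 UMIs, TRAV4 with TRAJ39 100, TRAV19 with TRAJ57 91 in 6 clonotypes, TRAV16 with TRAJ18 88 and TRAV6 with TRAJ58 81 in 6 clonotypes.

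**Figure D5:**
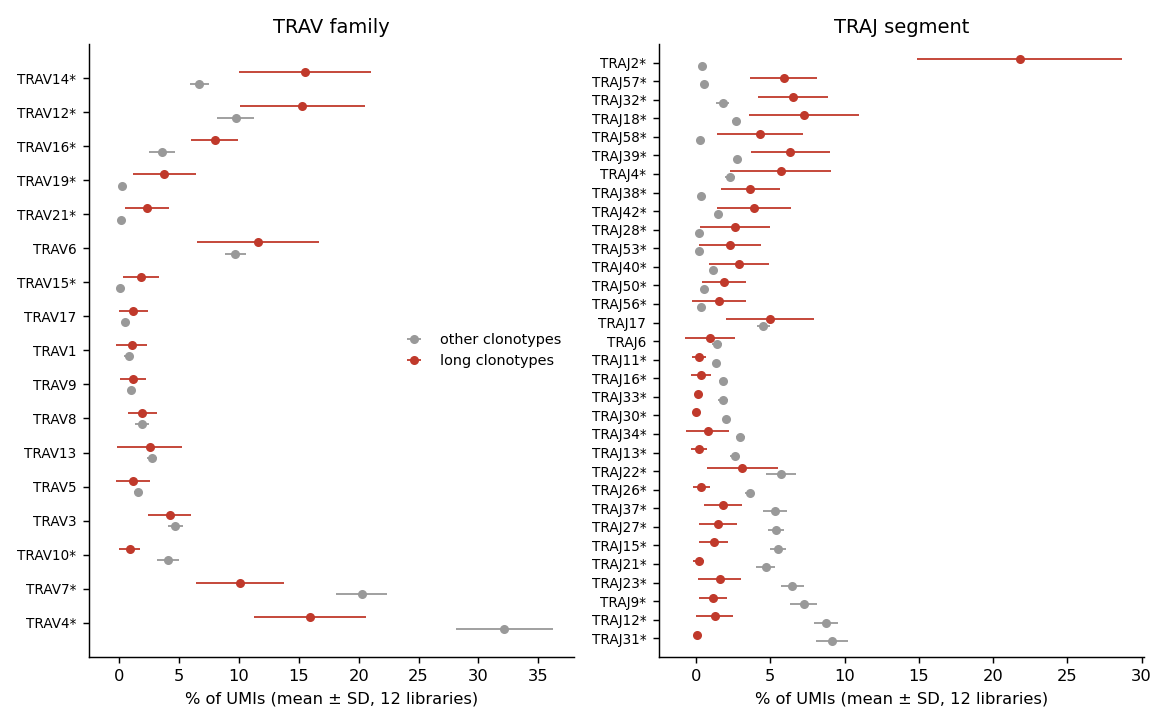
Percent of UMIs by TRAV family (left) and TRAJ segment (right) in long and other in-frame clonotypes, with points for the mean and lines for ± SD over 12 libraries, and * for an adjusted exact p below 0.05. TRAJ2 stands at 21.8% of long and 0.370% of other UMIs, and TRAV4 at 15.9 and 32.1%.

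Residue use differed too, and like J use it is tied to the length rule. Shares were weighted by UMIs and left out the first residue of each CDR3α, the one after it and the last. Of 20 amino acids, 16 differed in share of the remaining CDR3α residues (80%), 8 higher and 8 lower (14 without the clonotypes over 20 amino acids). Leucine (13.9 against 9.90%), glycine (16.9 against 13.6%) and serine (12.2 against 9.69%) rose most, and tyrosine (2.05 against 5.26%), valine (3.05 against 5.78%) and isoleucine (2.52 against 4.54%) fell most, each in 12 of 12 libraries (adjusted exact sign-flip p = 0.000888). Leucine, glycine and serine are all encoded within the J part of TRAJ2 shown above, and so are threonine, lysine and asparagine. Threonine rose (8.61 against 7.86%), lysine was not called (6.45 against 6.48%) and asparagine fell (8.37 against 10.1%). The part of TRAJ2 use in the residue differences was not tested.

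Within long clonotypes, use of TRAV families and TRAJ segments was compared between genotypes for those with at least 5% of long UMIs. Exact Mann-Whitney tests with Benjamini-Hochberg adjustment called 0 of 7 families and 0 of 7 segments between Il2° and wt, and 0 of 6 and 0 of 6 between Il15° and wt. With 4 against 4 mice p cannot fall below 0.0286. A single family or segment without any overlap therefore could not be called after adjustment, and the absence of calls decides little. Only TRAJ39 was below 0.05 unadjusted. It took 8.04, 8.99, 9.69 and 6.55% of long UMIs in wt and 2.28, 4.67, 2.75 and 4.55% in Il2° libraries, without overlap (means 8.32 ± 1.36 and 3.56 ± 1.22%; exact p = 0.0286, adjusted p = 0.2), and in Il15° 10.2, 4.44, 7.27 and 6.93%. TRAV4 took 17.3, 15.2, 23.8 and 14.4% in wt and 11, 12.8, 6.59 and 14.8% in Il2° (exact p = 0.0571), so that 1 Il2° library lay within the wt range. TRAV6 took 8.04, 13.8, 18.5 and 15.3% in wt and 8.98, 6.67, 2.42 and 6.57% in Il15° (exact p = 0.0571), again with 1 library inside the wt range. TRAJ2 averaged 22.3% for wt, 20.4% for Il2° and 22.6% for Il15° mice.

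Long clonotypes were less often shared between mice than other clonotypes. Of the 705, 435 (61.7%) were found in 1 library, 197 (27.9%) in 2 and 2 in all 12, so that 270 (38.3%) were in at least 2 libraries against 47.7% of other clonotypes. Of these 270, 166 (61.5%) were shared within linked pairs only, against 42.2% of the shared other clonotypes, and 83 (11.8% of all long clonotypes, against 24.0% of others) were in at least 2 of the 3 sets. Taken by library and leaving linked libraries out, 32.9 ± 9.3% of long and 57.8 ± 7.7% of other clonotypes were found again in another mouse (lower in 12 of 12 libraries; exact sign-flip p = 0.000488, the smallest possible, adjusted p = 0.000977 over 12 tests added after the data were examined). With linked libraries counted, the shares were 63.6 ± 15.3 and 77.2 ± 9.1% (lower in 12 of 12).

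Long clonotypes were smaller, and size could bear on being seen again, so the comparison was repeated by size. Of clonotypes with 1 UMI in a library, 30.5% of long and 47.2% of other were found in an unlinked library (lower in 11 of 12; exact p = 0.00195), with 2 to 4 UMIs 28.8 and 54.7% (12 of 12), and with 5 or more 63.6 and 82.3% (10 of 12; exact p = 0.00195). Public clonotypes, those in all 4 mice of a genotype, made up 5 of 327 long clonotypes in wt (1.53%, against 5.91% of others), 2 of 287 in Il2° (0.697 against 4.20%) and 5 of 222 in Il15° (2.25 against 5.70%). The 2 that were public in all 3 genotypes were the TRAV14-1 and TRAV12N-3 joins to TRAJ2, and 19 long clonotypes were found at least once in each genotype. Long clonotypes seen in a single genotype numbered 229 of 327 in wt, 194 of 287 in Il2° and 170 of 222 in Il15°. A clonotype found in only 1 library falls in a single genotype whatever its cause. Such clonotypes made up 61.7% of all long and 52.3% of all other clonotypes. The count by single genotype was not made for other clonotypes, and its link to genotype was not tested. Copies of TRAV genes in the mouse are nearly identical and could split a clonotype over names, and with copies merged 39.2% of 691 long clonotypes were in at least 2 libraries.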

How the data were processed

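TCRα libraries from sorted thymic Treg of 12 mice were analysed. Per the labels and the methods of the study, the authors filtered reads, built UMI consensus sequences from at least 2 reads with pRESTO, aligned and assembled them with MiXCR and exported clonotype tables with VDJtools; versions are not given in the sources used here, and the genome build in the submitters' processing notes is mm10. The deposited counts are whole UMIs per clonotype row, and the deposited fraction is each row's part of its library; the fraction was recomputed from counts. Consensus building removes many sequencing errors but not sequences carried between libraries.

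Rows without a stop or frame shift were kept, and clonotypes of 16 or more residues were taken. Members and lists were chosen with earlier results of these data known. Named clonotypes were the 10 with the highest mean share, those in 11 or 12 libraries, those called by edgeR, those in all 4 libraries of a genotype and none of another (at most 3 per pair), and the longest. Named TRAV families and TRAJ segments took at least 5% of long UMIs or had the 3 highest or lowest ratios, and named residues were the 3 largest rises and falls. Families and segments were tested above 1% of long or other UMIs.

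Genotypes were compared by exact 2-sided Mann-Whitney tests and long with other clonotypes by exact sign-flip permutation tests over libraries, with Benjamini-Hochberg adjustment at 0.05 (Python 3.11.15, numpy 2.4.6, pandas 2.3.3, scipy 1.17.1, matplotlib 3.10.9). Single clonotypes were tested with edgeR 4.0.16 (limma 3.58.1, R 4.3.3; TMM, quasi-likelihood) and DESeq2 1.42.0 as an alternative. Scripts were tested on simulated data. Germline sequences came from GENCODE M21. Same replicate numbers in different genotypes did not pair the mice. Alternatives covered the length limit, a minimum of 2 UMIs, all rows of 48 or more bases whatever their frame, nucleotide clonotypes, downsampling to 7625 UMIs (20 draws), other filters, merged V copies and leaving out each library; that on sequences shared between libraries was added after seeing the data, as were those on lengths over 20 and on V copies.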

Additional observations from a re-analysis of the deposited data

Results flagged for a closer look

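In 73 groups of 4 libraries examined for 1 library far from the others, 5 were picked out, and chance picks about 1 in 20 groups. TRAV14 took 5.48% of long UMIs in Il2° 1 against 17.6 to 18.2% in the other Il2° libraries, and TRAV7 took 19.2% in the same library against 8.79 to 10.2%. Il2° 1 was the only Il2° library linked to wt 2, whose TRAV14 share was 14.3%, and the part of that link in its values was not tested. The other 3 were single clonotypes that stood out through few UMIs. TRAV16N TRAJ18 (b) made up 0.00648% of in-frame UMIs in wt 3 and was at 0 in the other wt libraries, which is 1 UMI. TRAV21/DV12 TRAJ57 made up 0.00561% in Il15° 4, again 1 UMI, and was at 0 in the other Il15° libraries. TRAV4D-3 TRAJ42 made up 0.116% in Il15° 3 (12 UMIs) against 0 to 0.0112% in the others of that genotype.

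Rows that were out of frame or held a stop, which the report's comparisons did not use, also contained sequences as long as a CDR3α of 16 residues. Rows with 48 or more bases numbered 129, with 232 UMIs (0.116% of all UMIs), and every one of the 12 libraries held between 10 and 35 of these UMIs.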

How the results depend on the processing

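Apart from leaving out libraries, 139 values under alternatives kept their direction and side of the threshold, and 15 did not; counts were held to have stayed where they were within 1.5 times. Within that margin, a limit of 17 residues gave 6 TRAV families, 21 TRAJ segments and 12 residues differing between long and other clonotypes, against 9, 30 and 16, and a limit of 15 gave 12, 28 and 16. The differences between genotypes in long share or clone size were within the spread between mice and changed sign easily, and the cause was not tested. Between Il15° and wt, the UMI share differed by -0.184 at a limit of 15 residues and -0.0116 at 17, the clonotype share by -0.485 and -0.00983, and the log2 clone size ratio by -0.0875 at 17, -0.0465 from 2 UMIs up, -0.0110 with nucleotide clonotypes and -0.0141 after downsampling. Between Il2° and wt, the log2 clone size ratio differed by -0.0195 from 2 UMIs up, and the UMI share by 0.131 with each sequence in its highest library only. The clonotype share differed between Il15° and wt by 0.225 from 2 UMIs up (exact Mann-Whitney p = 0.0286), the only one of 144 such genotype tests below 0.05. Many of the 144 left out a library or paired same-numbered mice, and with so few mice those could not fall below 0.05. DESeq2 called 8 clonotypes for Il2° and 5 for Il15°, and the filter on detection in all 4 libraries 50 and 127. Leaving out each library gave 0 to 1 calls by edgeR for Il2°, with 1 without Il2° 4, 9 to 10 TRAV families, 29 to 32 TRAJ segments, and a clonotype share difference of -0.00171 to 0.159 between Il15° and wt, negative without wt 3. The other ranges for the UMI share stand beside its values. The replicate block leaves mean differences as they are (UMI share -0.0920, exact sign-flip p = 0.375), and with 4 pairs its p cannot fall below 0.125, so for shares, clone size and usage it could make no call. In edgeR it gave 0 calls in both mutants. Same-numbered mice did not deviate together (correlations -0.205 to 0.142 over 668 clonotypes). Depth limits clonotypes below 0.0121 to 0.0411% of a library.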
